A study of Mus musculus with 11 samples.

Results

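Trimethylation of lysine 36 of histone H3 (H3K36me3) was compared between quiescent satellite cells (QSCs) and activated satellite cells (ASCs) of young mice, using every region of enrichment (peak) that the authors deposited for this mark. The 2 lists hold 63279 of the 212879 peaks in the 8 ChIP lists of the series, 20399 in QSCs and 42880 in ASCs. Both libraries came from hindlimb muscle of male C57BL/6 mice of 2 to 3 months, sorted as VCAM+ / CD31- / CD45- / Sca1- cells, with no transgene or deletion named in the labels. The labels describe ASCs as sorted QSCs kept for 3 days on an ECM-coated surface in F10 medium with 10% horse serum, whereas the paper speaks of satellite cells (SCs) activated in the animal, so that activation and culture cannot be told apart here. Each state and mark has 1 library and no replicate, and cells were pooled until there were enough for a ChIP reaction. The H3K4me3 and H3K27me3 lists of the same states were used to describe the surroundings of the H3K36me3 peaks.

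SCs are the resident stem cells of skeletal muscle. They are quiescent in resting muscle and, when activated, enter the cell cycle and give rise to myoblasts. H3K36me3 is deposited by SETD2, which travels with elongating RNA polymerase II, so the mark is known for lying over the bodies of transcribed genes, away from their starts. H3K4me3 marks promoters, and H3K27me3, the product of Polycomb repressive complex 2, marks repressed genes. Sites that carry H3K4me3 and H3K27me3 together are called bivalent.

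No read counts were used here, the depth of each library is unknown, and no test between states was possible. Beside shares stands their 95% interval by Wilson's method, and it accounts for counting error alone. The score of a peak is the authors' MACS value, a p-value on a scale on which 50 corresponds to 1e-05. Scores depend on depth, so scores of the 2 lists are not on 1 footing; they served to rank peaks within a list and, in the alternatives, to shorten the lists. In pooled chromatin, more cells carrying a mark and more of the mark per cell cannot be told apart. Positions are in mm9. Gene positions of that build were not used here, so regions are named by position and the cell type was not checked against marker genes.

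H3K36me3 was called over far more sequence in ASCs than in QSCs. Its peaks covered 29.1 Mb in QSCs and 70.0 Mb in ASCs, 2.41 times as much, and their number was 2.10 times as high. In the full lists single peaks were of similar width, QSC peaks having a median of 1103 bp and ASC peaks one of 1220 bp. What differed more was their spacing. Neighbouring peaks were separated by a median gap of 12031 bp among QSC peaks and 2035 bp among ASC peaks, and 37.6% against 66.6% of neighbours lay under 5 kb apart. Median scores were 83.8 for QSC peaks and 107.8 for ASC peaks, which cannot be compared without the depth. With the ASC list limited to its 20399 highest-scoring peaks, as many as in QSCs, the covered length was still higher in ASCs, by 0.70 on the log2 scale against 1.27 for the full lists. The peaks were then no longer of similar width, the ASC median being higher by 0.75 on the log2 scale against 0.15 for the full lists.

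Peaks under 5 kb apart were merged into domains, as stretches of a transcribed body would be. In the full lists there were 12731 domains in QSCs and 14348 in ASCs, and the difference in length was larger than that in number. Median domain length was 1151 bp for QSCs and 3560.5 bp for ASCs, and the domains spanned 41.0 Mb and 107.5 Mb. In QSCs, 9223 domains (72.4%) consisted of 1 peak, against 6380 (44.5%) in ASCs. Domains of 5 or more peaks numbered 541 and 2734.

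Long domains were more numerous in ASCs at every length examined. Domains longer than 10 kb numbered 970 in QSCs and 3564 in ASCs, those longer than 20 kb numbered 210 and 1338, and those longer than 50 kb numbered 13 and 110. Beyond 100 kb there were 2 and 9, so that the ratio rose from 3.67 to 8.46 between 10 and 50 kb and was 4.5 at 100 kb, on few domains. Long domains of over 10 kb held 40.3% of the length spanned in QSCs and 69.4% in ASCs. The longest domain measured 104.3 kb in QSCs, in a stretch described further on that is also listed under both other marks, and 251.8 kb in ASCs; the next in QSCs measured 102.5 kb. The count of domains had no stable direction: with the top-scoring ASC peaks only there were 9503 ASC domains, fewer than in QSCs, while the ASC median of 3300 bp and the 1943 ASC domains longer than 10 kb stayed above the QSC values. Merging at 10 kb also gave fewer domains in ASCs, 10202 against 10744. In the other direction, scores of at least 100 gave 5565 QSC and 10251 ASC domains, and merging at 1 kb brought the median lengths to 1119 bp and 1506 bp.

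**Figure D1:**
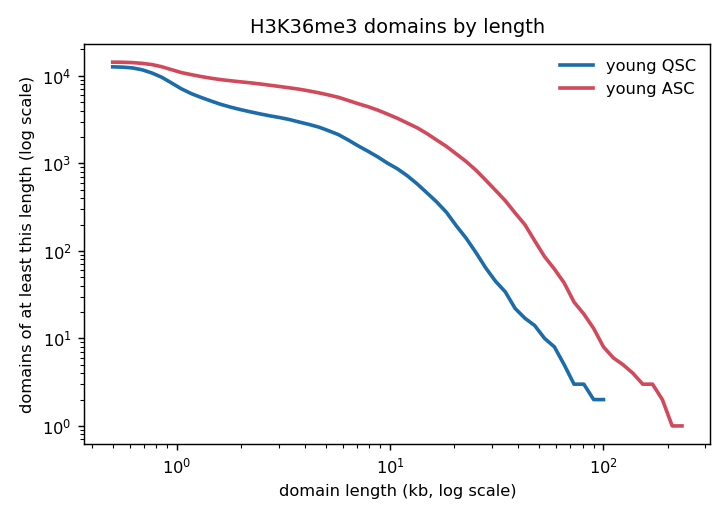
Number of H3K36me3 domains (vertical axis, log scale) that are at least as long as the length on the horizontal axis (kb, log scale) in young QSCs and young ASCs, 1 library each. The curves start close together, at 12731 and 14348 domains in all, and are further apart at 20 kb, with 210 and 1338 domains longer than 20 kb.

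Most QSC peaks were found again in ASCs, but most ASC peaks were not called in QSCs. Of the QSC peaks, 12073 overlapped an ASC peak by at least 1 bp (59.2%, 95% interval 58.5% to 59.9%) and 8326 did not (40.8%). In the ASC list, 11265 peaks overlapped one of QSCs (26.3%, 25.9% to 26.7%) and 31615 did not (73.7%). The 17.8 Mb under peaks of both states made up 61.1% of the QSC length and 25.4% of the ASC length. The lists differ in length, and with as many ASC as QSC peaks the shares came closer, to 46.7% of QSC peaks and 40.6% of ASC peaks.

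Overlap rose with score in both lists. In the lowest-scoring 10% of QSC peaks 41.5% (39.4% to 43.7%) overlapped an ASC peak, and in the highest-scoring 10% the share was 85.5% (83.9% to 87.0%). For ASC peaks the shares were 9.91% (9.05% to 10.8%) and 71.9% (70.5% to 73.2%). The QSC peaks without an ASC counterpart were the smaller and weaker ones, their medians being 942 bp for width and 70.7 for score, against 1308 bp and 99.9 for those with one. Even so, 90 QSC peaks without a counterpart had a score of at least 500. ASC peaks without a QSC counterpart had a median of 1101 bp and a score of 93.2, against 1818 bp and 204.9 for the others, and 639 of them reached 500.

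**Figure D2:**
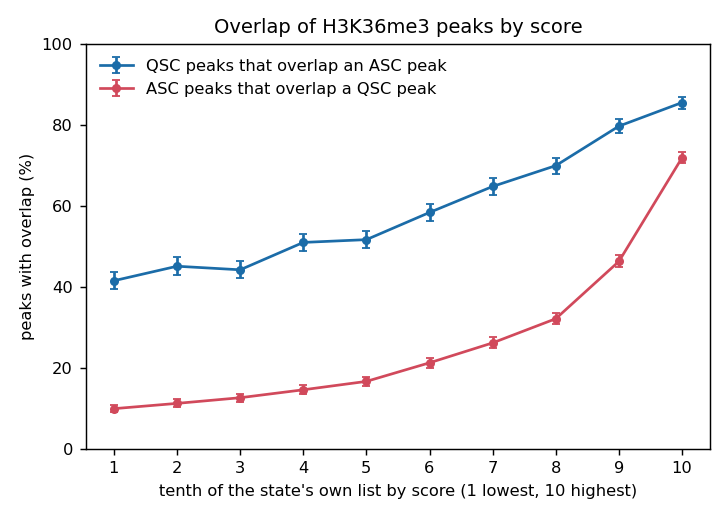
Share of H3K36me3 peaks that overlap a peak of the other state (vertical axis, %) in 10 equal bins of a state's own list by score (horizontal axis, lowest to highest), with Wilson 95% intervals as bars. Both shares rise with score, from 41.5% to 85.5% for QSC peaks and from 9.91% to 71.9% for ASC peaks.

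At the level of domains, nearly all long QSC domains overlapped an ASC domain by at least 1 bp. Of the QSC domains, 6874 (54.0%, 53.1% to 54.9%) overlapped an ASC domain and 46% did not. Among QSC domains of 10 kb or longer the share with overlap was 95.6% (94.1% to 96.7%), or 927 of 970, against 41.0% (40.0% to 42.0%) among domains of 1 peak. Of the ASC domains, 40.8% overlapped a QSC domain and 59.2% did not. With as many ASC as QSC peaks the order of the states turned, to 42.2% of QSC and 51.6% of ASC domains with overlap. Among ASC domains of 10 kb or longer, 2578 of 3564 (72.3%, 70.8% to 73.8%) overlapped a QSC domain and 986 had none. Long domains meet another by 1 bp more easily than lone peaks do. These shares do not show how much of the length stayed marked. The longest QSC domain, of 104.3 kb, counts as overlapping with 11.3 kb under ASC peaks.

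Added length lay both in domains already called in QSCs and in domains called in ASCs only. A total of 4799 QSC domains matched 1 ASC domain that matched no other, and this group grew from 22.4 Mb to 44.3 Mb. In 829 further places 1 ASC domain joined several QSC domains, 1945 in all, and the span there went from 8.39 Mb to 25.1 Mb. Up to 9 QSC domains were joined in this way, and 196 ASC domains joined 3 or more. The reverse, 1 QSC domain split into several in ASCs, was seen 81 times. An ASC domain that joins QSC domains must also span the gaps between them, so this choice itself favours a longer span in ASCs. Splits favour a longer span in QSCs in the same way. The ASC list is the longer and its peaks lie closer together, which by itself favours joins over splits. Joins and splits were not counted with as many ASC as QSC peaks. The 8500 domains called in ASCs only spanned 36.5 Mb with a median of 1520 bp, and the 5857 called in QSCs only spanned 7.92 Mb with a median of 923 bp.

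Matched domains were mainly longer in ASCs. Of the 4799 pairs, 3556 were longer in ASCs (74.1%, 72.8% to 75.3%), and the median ratio of ASC to QSC length was 1.59, with an interquartile range of 0.990 to 4.94. In 2100 pairs (43.8%) the ASC domain was at least 2 times longer, and in 335 (6.98%) at least 2 times shorter. The ratio differed with the length by which pairs were chosen. Where the QSC domain was a lone peak (2669 pairs), the median went from 1073 bp to 4811 bp and 82.1% were longer in ASCs. Where the QSC domain was already 10 kb or longer (628 pairs), the medians were 14043.5 bp and 15702.5 bp, the median ratio was 1.03 and 58.1% (54.2% to 61.9%) were longer. Choosing lone QSC peaks itself favours short QSC values, and choosing long QSC domains favours long ones. When pairs were chosen by an ASC domain of 1 peak instead (1400 pairs), 45.1% were longer in ASCs. With an ASC domain of 10 kb or longer (1710 pairs), 91.8% were longer in ASCs, at a median ratio of 3.38. Whether the gain depends on the starting length therefore cannot be read from these values.

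In matched pairs with H3K4me3 at only 1 end of the QSC domain, the other end more often lay further out in ASCs. In 711 matched pairs, H3K4me3 was called in both states within 2 kb of exactly 1 end of the QSC domain. The end with H3K4me3 lay further out in ASCs in 48.7% of pairs (45.0% to 52.3%), with a median shift of -12 bp. The other end lay further out in 66.7% (63.1% to 70.0%), with a median shift of 244 bp, and it moved out further than the H3K4me3 end in 66.2% (62.7% to 69.6%). In the 211 pairs with a QSC domain of 10 kb or longer the corresponding shares were 41.2%, 68.2% and 70.6%. Pairs were chosen by their QSC ends, 1 with H3K4me3 and 1 without, so the choice itself may favour a difference between the ends. These shares come from the full lists and were not computed with as many ASC as QSC peaks.

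H3K4me3 at the ends of long domains was about as frequent in both states. Among domains of 10 kb or longer, 33.9% (31.0% to 37.0%) in QSCs and 31.4% (29.9% to 33.0%) in ASCs had H3K4me3 of the same state within 2 kb of 1 end, and 7.53% and 7.01% had it at both. Within 5 kb, 62.5% and 60.1% of the long domains had H3K4me3 at 1 end or both. Over domains of any length, H3K4me3 lay within 2 kb of 1 end or both in 28.9% of QSC and 26.3% of ASC domains. It lay at both ends in 19.1% and 8.15%. Direct overlap with H3K4me3 was lower in long domains called in ASCs only. Of these 986, 16.6% (14.4% to 19.1%) overlapped an H3K4me3 peak of ASCs, against 33.1% (31.3% to 34.97%) of the 2578 long ASC domains that overlapped QSC H3K36me3. H3K4me3 of QSCs overlapped 4.36% (3.25% to 5.82%) and 24.9% (23.3% to 26.6%). H3K27me3 overlapped 1.12% of the 986 in QSCs and 2.23% in ASCs, so most lay in stretches where neither of the other marks was called in QSCs. The 986 and the 2578 domains were not matched for length, and longer domains meet an H3K4me3 peak more easily. A QSC domain overlapped 72.3% of ASC domains of 10 kb or longer and 81.5% of those of 20 kb or longer.

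A lower share of H3K36me3 peaks lay on H3K4me3 in ASCs. H3K4me3 of the same state overlapped 15.4% of QSC peaks (14.9% to 15.9%) and 5.62% of ASC peaks (5.41% to 5.84%). H3K27me3 of the same state overlapped 2.90% (2.68% to 3.14%) and 1.81% (1.68% to 1.94%). With as many ASC as QSC peaks the ASC shares were 7.74% for H3K4me3, still below that of QSCs, and 2.77% for H3K27me3, near the 2.90% of QSCs. Most of the QSC peaks on these marks had no ASC counterpart. Of the QSC peaks without one, 23.2% (22.3% to 24.1%) overlapped H3K4me3 of QSCs, against 10.1% (9.53% to 10.6%) of the QSC peaks with a counterpart, and 20.03% (19.2% to 20.9%) overlapped H3K27me3 of ASCs, against 4.69% (4.33% to 5.08%). Among QSC peaks of any class that scored 100 or more, 21.2% lay on H3K4me3. The ASC peaks without a QSC counterpart went the other way, with 3.82% on H3K4me3 and 0.664% on H3K27me3 of ASCs, against 10.7% and 5.01% of the ASC peaks with one.

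The 19404 H3K4me3 peaks of QSCs that were also called in ASCs offered a set of sites chosen without H3K36me3. H3K36me3 lay within 5 kb of 24.0% of them in QSCs and 30.3% in ASCs. It was there in ASCs only at 2605 sites (13.4%) and in QSCs only at 1389 (7.16%). Directly on the sites, with an overlap of at least 1 bp, the order was the reverse: 7.60% (7.24% to 7.98%) overlapped H3K36me3 in QSCs and 4.83% (4.54% to 5.14%) in ASCs. This held for sites without H3K27me3 (6.20% and 5.22%) and for sites that were bivalent in both states (12.4% and 2.55%). Within 5 kb, the direction differed with H3K27me3. At the 14360 sites without H3K27me3 in either state, the share was 25.5% (24.8% to 26.2%) in QSCs and 37.4% (36.6% to 38.2%) in ASCs, with 2446 sites marked in ASCs only and 743 in QSCs only. At the 2937 sites that were bivalent in both states, it was 19.8% (18.4% to 21.3%) in QSCs and 7.97% (7.04% to 9.002%) in ASCs, with 77 sites marked in ASCs only and 425 in QSCs only. The 1977 sites with H3K27me3 in ASCs only also had a lower share in ASCs, 11.7% (10.4% to 13.2%) against 19.6% (17.9% to 21.4%), and the 130 sites with H3K27me3 in QSCs only had a higher one, 27.7% (20.7% to 35.9%) against 15.4% (10.2% to 22.6%).

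The gain at sites without H3K27me3 went with the length of the ASC list, and the loss at bivalent sites was smaller among strong peaks. With as many ASC as QSC peaks, 26.2% of the sites without H3K27me3 had H3K36me3 nearby in ASCs, close to the 25.5% of QSCs, whereas the share at bivalent sites was 5.58%, below the 19.8% of QSCs. With scores of at least 100 in both lists, the shares were 14.8% in QSCs and 28.0% in ASCs without H3K27me3, and 7.97% and 5.75% at bivalent sites.

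Position around these sites also differed. Around sites without H3K27me3, H3K36me3 was low in the first kb from the centre, where it covered 3.05% of the sequence in QSCs and 2.29% in ASCs. It rose to a maximum of 6.12% at 9 to 10 kb in QSCs and 12.3% at 10 to 11 kb in ASCs, and then declined slowly to 4.31% and 9.07% at 49 to 50 kb. Around bivalent sites the QSC profile was highest in the first kb itself, at 6.35%, and fell to 1.75% at 5 to 6 kb, while the ASC profile stood at 1.53% in the first kb and reached 6.19% in the last.

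**Figure D3:**
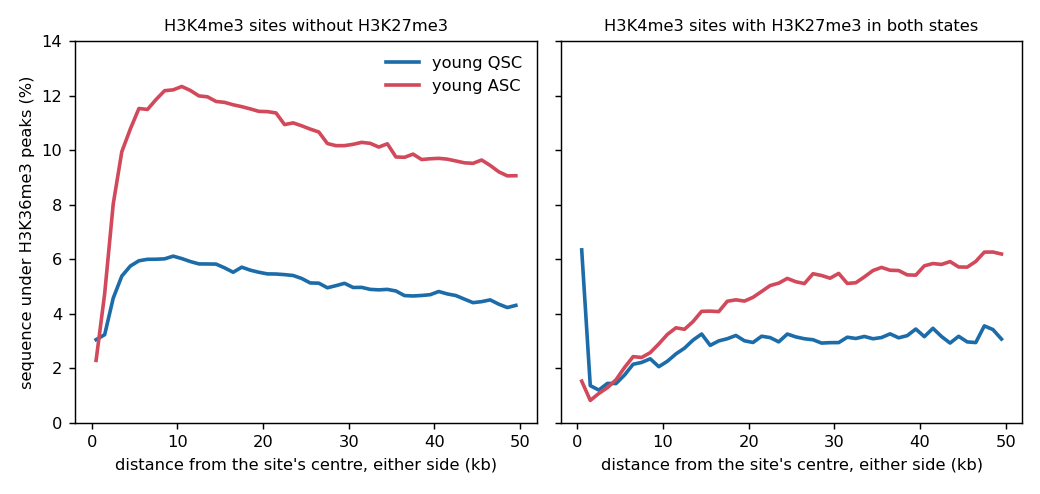
Share of sequence under H3K36me3 peaks (vertical axis, %) by distance from the centre of H3K4me3 sites called in both states (horizontal axis, kb, both sides together, bins of 1 kb), for 14360 sites without H3K27me3 (left) and 2937 sites with H3K27me3 in both states (right). On the left both states peak near 10 kb, at 6.12% in QSCs and 12.3% in ASCs; on the right only the QSC line is high in the first kb, at 6.35% against 1.53%.

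The width of the H3K4me3 peaks moved with H3K36me3. Among sites where a QSC peak matched 1 ASC peak, those with H3K36me3 within 5 kb in ASCs only (2330 sites) were wider in ASCs in 85.8% (84.4% to 87.2%), from a median of 1683 bp to one of 2217.5 bp. Those with H3K36me3 in QSCs only (1231 sites) were wider in ASCs in 40.0% (37.3% to 42.8%), with medians of 1538 bp and 1504 bp. Sites with H3K36me3 in both states (2748) were wider in 70.2%, and those with none nearby (11258) in 56.8%. The promoter mark and H3K36me3 came from separate libraries, and the H3K4me3 lists differ in length as well.

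The 5 longest domains of each state show how uneven the change was. The longest ASC domain, chr2:76541836-76793646, held 42 ASC peaks covering 229.3 kb of its 251.8 kb, with a highest score of 2406, and 1 QSC peak of 2.75 kb with a score of 172.3. No H3K4me3 or H3K27me3 peak lay in it in either state. The next, chr2:51989698-52187673, held 59 ASC peaks covering 162.4 kb and no QSC peak, which makes it the longest domain called in ASCs only. H3K4me3 was called near its end of higher coordinate in ASCs and nowhere in it in QSCs.

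At chr15:27661923-27833666, 53 ASC peaks covered 134.4 kb against 24.9 kb under 20 QSC peaks. At chr4:144628500-144780794, 55 ASC peaks covered 85.4 kb against 6.38 kb under 7 QSC peaks, and at chr4:147826054-147957645, 42 ASC peaks covered 99.8 kb against 44.2 kb under 29 QSC peaks. Of the 5 longest ASC domains, 4 had some H3K36me3 in QSCs, in fewer peaks and over less length. They were chosen by their ASC length, and this choice itself favours less length in QSCs. Of all ASC domains of 20 kb or longer, 81.5% (1090 of 1338) overlapped a QSC domain.

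Other long domains called in ASCs only were chr6:84009187-84109204 (30 peaks, 64.8 kb), chr2:76906043-76978333 (24 peaks, 31.7 kb), chr19:37971958-38028620 (15 peaks, 47.3 kb) and chr7:119446129-119502692 (16 peaks, 47.3 kb). The one on chromosome 6 was the exception for H3K27me3, which covered 10.9 kb of it in QSCs and 13.7 kb in ASCs. H3K4me3 covered more of each of these 4 domains in ASCs than in QSCs, for instance 1.32 kb and 6.37 kb in the domain on chromosome 7.

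Of the 970 QSC domains of 10 kb or longer, 43 overlapped no ASC domain. The longest domain called in QSCs only, chr2:31191575-31294077, held 28 QSC peaks covering 76.6 kb of 102.5 kb, with a highest score of 934.2, and no ASC peak. Its 3 H3K4me3 peaks of QSCs (2.67 kb) had no ASC counterpart inside it either, and H3K27me3 was not called in either state. The others were much shorter, at 24.3 kb (chr15:78605034-78629317), 23.2 kb (chr11:51626408-51649646), 19.9 kb (chr2:38796695-38816624) and 19.9 kb (chr9:20573493-20593401). The domain on chromosome 15 had 6 QSC peaks covering 18.6 kb with a score of up to 1189. There, H3K4me3 covered 8.15 kb in QSCs and 1.62 kb in ASCs, and H3K27me3 was called in ASCs only, over 2.95 kb.

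The longest QSC domain lay in a stretch that is listed under every mark in QSCs, and whether it reflects the mapping of reads was not tested. Within chr8:126044300-126148605, 42 QSC peaks covered 84.3 kb, but a block of 87.6 kb of the same stretch was also listed under H3K4me3 in both states, and 87.7 kb under H3K27me3. ASC H3K36me3 peaks covered 11.3 kb, nearly all of it outside that block. Only 2 of 970 QSC and 1 of 3564 ASC domains of 10 kb or longer had at least 50% of their length under both other marks. The remaining long QSC domains were retained: at chr4:138958103-139043968 the covered length was 47.8 kb in QSCs and 81.0 kb in ASCs, at chr4:137057451-137128565 it was 56.6 kb and 70.0 kb, and at chr19:5639199-5708803 it was 41.2 kb and 44.5 kb.

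**Figure D4:**
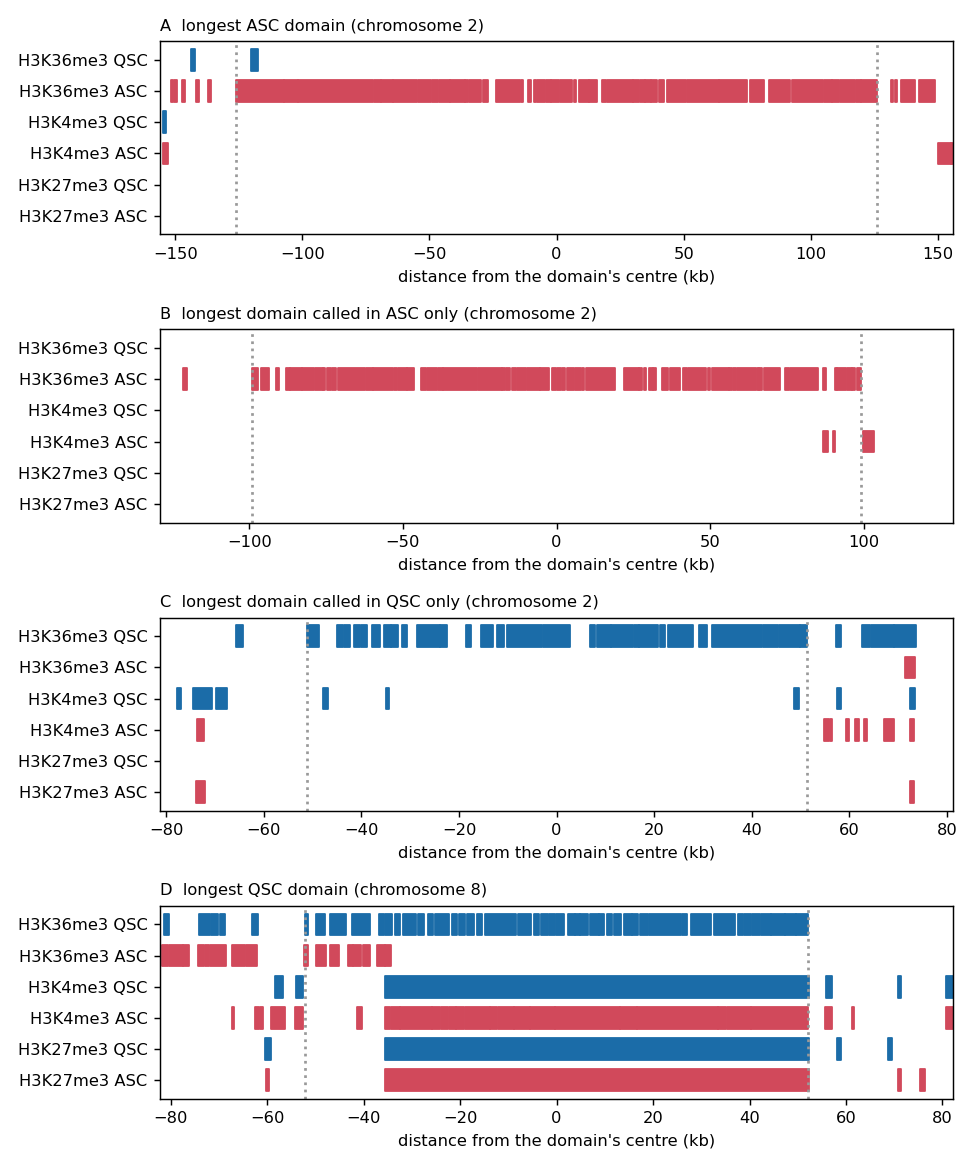
Peaks of H3K36me3, H3K4me3 and H3K27me3 in young QSCs (blue) and young ASCs (red) in 4 regions, by distance from the centre of the domain (horizontal axis, kb); dotted lines mark the domain's ends and each bar is a peak. H3K36me3 covers 229.3 kb (A) and 162.4 kb (B) in ASCs against 2.75 kb and none in QSCs, covers 76.6 kb in QSCs only in C, and in D lies in QSCs on a block that is listed under both other marks in both states.

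In the full lists, every autosome had more length under H3K36me3 peaks in ASCs, and the X chromosome, sparsely marked in both states, had less. On autosomes, the covered length was between 1.78 times (chromosome 17) and 3.49 times (chromosome 13) that of QSCs. These values lie around the 2.41 times of the whole lists, so a higher value on an autosome goes with the longer ASC list. Covered length by chromosome was not computed with as many ASC as QSC peaks. Chromosome 11 was the most densely marked in both states, with 20.7 kb per Mb in QSCs and 47.1 kb per Mb in ASCs. On X, 173 QSC peaks covered 196 kb and 134 ASC peaks covered 145 kb, a ratio of 0.738. This was 1.18 kb per Mb in QSCs and 0.869 kb per Mb in ASCs. The lowest autosomes had 5.46 kb per Mb in QSCs (chromosome 13) and 16.8 kb per Mb in ASCs (chromosome 14), so the ratio on X rests on few peaks. The share of all H3K36me3 peaks that lay on X was 0.848% (0.731% to 0.984%) in QSCs and 0.312% (0.264% to 0.370%) in ASCs, and X domains made up 1.30% and 0.627% of all domains.

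On X the 2 lists also shared little. There, 12.1% of QSC peaks (8.08% to 17.8%) overlapped an ASC peak, against 59.2% over all chromosomes. Of the X peaks, 48 of 173 in QSCs (27.7%, 21.6% to 34.8%) and 5 of 134 in ASCs (3.73%, 1.60% to 8.44%) overlapped H3K4me3 of the same state. The last window of 1 Mb on X held 30.2 kb in QSCs, in 5 peaks, and none in ASCs, and without it the ratio was 0.872. H3K4me3 in that window covered 2.12 kb in QSCs and 27.3 kb in ASCs, and whether the window reflects the mapping of reads was not tested. With scores of at least 100, the share on X was 0.521% of 5565 QSC domains and 0.283% of 10251 ASC domains. The ASC list is much the longer there, so these shares do not show that X held fewer domains in ASCs. Taken of their own lists, both shares amount to the same number of domains on X. The share of H3K4me3 peaks on X was also lower in ASCs, 2.14% against 2.77%, and that of H3K27me3 peaks was higher, 1.26% against 0.815%.

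**Figure D5:**
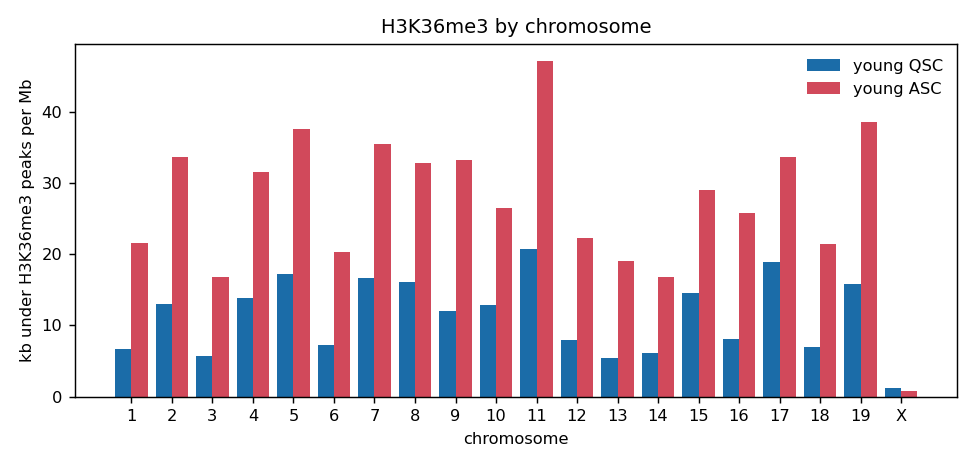
Length under H3K36me3 peaks per Mb of chromosome (vertical axis, kb per Mb, taking the largest peak position in any list as the chromosome's length) for each chromosome (horizontal axis) in young QSCs and young ASCs, 1 library each. The ASC bar is the taller on every autosome, most so in ratio on chromosome 13 (3.49 times), and the lower on X (0.738 times).

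In the full lists the change was spread over many windows, with a few standing out. Of 2266 windows of 1 Mb with a peak in either state, 1554 had more covered length in ASCs and 712 had less. The ASC list covered 2.41 times the length of the QSC list, which by itself makes most windows lean towards ASCs. Windows were not counted with as many ASC as QSC peaks. The largest gain, from 5.77 kb to 312.2 kb, was at chr2:76000001-77000000, the window that holds the longest ASC domain, followed by chr2:52000001-53000000 (6.28 kb to 166.7 kb), chr4:123000001-124000000 (8.19 kb to 159.9 kb), chr3:88000001-89000000 (77.9 kb to 228.0 kb) and chr7:56000001-57000000 (20.4 kb to 158.2 kb). The losses were smaller, from 86.6 kb to 49.4 kb at chr10:76000001-77000000, from 114.2 kb to 82.2 kb at chr17:34000001-35000000, from 30.2 kb to none at chrX:166000001-167000000, from 108.4 kb to 78.7 kb at chr15:78000001-79000000 and from 218.6 kb to 197.1 kb at chr10:79000001-80000000.

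Taking the domains of both lists as 1 set gave 19320 merged regions. Of these, 7910 (40.9%) were called in ASCs only, 5176 (26.8%) in QSCs only and 6234 (32.3%) in both. Covered length was at least 2 times higher in ASCs, or present in ASCs only, in 56.1% of regions, and at least 2 times lower, or present in QSCs only, in 28.2%. Where both states had H3K36me3, 4885 of 6234 regions (78.4%, 77.3% to 79.4%) had more of it in ASCs, and the median ratio was 1.86. In that group 2932 regions had at least 2 times more and 274 at least 2 times less. Over the full lists the covered length was 2.41 times as high in ASCs, so most regions would lean this way from the longer list alone. These counts were not computed with lists of equal length. For matched domains, the log2 ratio of length was 0.67 with the full lists and 0.38 with as many ASC as QSC peaks.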

How the data were processed

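H3K36me3 ChIP-seq of young QSCs and ASCs was taken as deposited, 1 peak list per state, with the H3K4me3 and H3K27me3 lists of the same states. For each library the authors deposited the positions of peaks called against an input library and a score per peak on the MACS scale of -10 log10 of the p-value. The submitters' processing notes name Bowtie and mm9, and versions and read numbers are not given in the sources used here.

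Samples were grouped by the labels. Lists were compared in pandas 2.3.3 and numpy 2.4.6 under Python 3.11.15, at an overlap of at least 1 bp. Peaks under 5 kb apart were merged into domains, and H3K4me3 within 2 kb counted as at an end. Wilson intervals used scipy 1.17.1, and figures matplotlib 3.10.9. The functions were tested on simulated data and checked against bedtools 2.31.1.

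The members and lists were chosen with earlier results of these data known. Regions were named by rule: the 5 longest domains of each state and of those called in 1 state only, and the 5 windows of 1 Mb with the largest gain and loss. Genes were not placed, because the gene table at hand belongs to GRCm38. The planned count of genes with H3K36me3 was therefore not run, and no sequences are shown. With 1 library per state there was no test, and precision is limited to counting error. The alternatives were a score of at least 100, as many ASC as QSC peaks, an overlap of 50% of the shorter, merging at 1, 2 and 10 kb, and ends at 1 and 5 kb. The minimum of 10 kb for domains, and the alternatives for H3K4me3 sites, were chosen after seeing the data.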

Additional observations from a re-analysis of the deposited data

How the results depend on the processing

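Of 86 values under alternatives, 21 stayed within the counting interval or within 1.5 times of the reported value and 63 moved further. The other 2 changed direction, which was judged for the 26 ratios only, and 24 of these kept it. Shares were not judged for direction, and in some of them the order of the states turned. Depth is unknown, so the lists' unequal length could be addressed only by score. No paired analysis was possible because each state has 1 library. The share of H3K4me3 at ends does not involve the overlap minimum, and equal lists fix the number of peaks. The cause of each move was not tested. The ratio of domain numbers (ASC over QSC, log2 0.17) became -0.42 with as many top-scoring ASC as QSC peaks and -0.075 with merging at 10 kb.

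With as many ASC as QSC peaks, the log2 ratio was 0.61 for the length spanned and 0.75 for peak width. Overlap became 46.7% of QSC and 40.6% of ASC peaks, and 42.2% of QSC and 51.6% of ASC domains. Of ASC domains, 0.274% lay on X and 27.6% had H3K4me3 at an end; 7.74% of ASC peaks overlapped H3K4me3 and 2.77% H3K27me3. ASC H3K36me3 lay near 26.2% of H3K4me3 sites without H3K27me3 and 5.58% of bivalent ones.

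Limiting both lists to scores of 100 or more gave log2 ratios of 0.87 for median domain length and 0.88 for domain number. Overlap became 66.4% of QSC and 22.1% of ASC peaks, and 63.5% of QSC and 31.3% of ASC domains. H3K4me3 lay at an end of 36.8% and 27.3% of domains and on 21.2% and 7.27% of peaks, H3K27me3 lay on 2.54% of ASC peaks, and 0.521% and 0.283% of domains lay on X. Near H3K4me3 sites without H3K27me3 the shares were 14.8% in QSCs and 28.0% in ASCs, and near bivalent ones 7.97% and 5.75%.

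With an overlap of 50% of the shorter, 57.4% of QSC and 25.03% of ASC peaks and 52.5% and 39.6% of domains overlapped, and 14.4% and 3.96% of peaks overlapped H3K4me3. Merging at 1, 2 and 10 kb gave a log2 ratio of median domain length of 0.43, 0.72 and 2.56. ASC domains with overlap were then 29.97%, 33.1% and 48.5%, QSC domains with overlap 56.2% and 55.2% at 1 and 2 kb, ASC domains on X 0.405%, 0.463% and 0.794%, and QSC domains on X 1.02%, 1.10% and 1.52%. H3K4me3 at an end was found in 25.8%, 26.8% and 30.6% of QSC and 19.4%, 22.3% and 29.2% of ASC domains. Ends of 1 kb and 5 kb gave 24.2% and 39.3% in QSCs and 18.3% and 42.7% in ASCs, so that the order of the states turned at 5 kb. Domains of 10 kb or longer overlapped in 95.6% of QSC and 72.3% of ASC cases and had H3K4me3 at an end in 41.4% and 38.4%.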
